A study of Mus musculus with 6 samples.

Results

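The cytosolic nucleic acid sensing genes were described in TM4, an established line from mouse testis that serves as a Sertoli cell model. Sertoli cells are the somatic cells that nurse germ cells. The set held 10 genes of the 55414 in the table: Rigi, Ifih1, Dhx58, Mavs, Cgas, Sting1, Tbk1, Irf3, Irf7 and Zbp1. They were listed by name for their place in the pathway, with earlier results of these data known, and matched by Ensembl identifier, and all 10 were found, Rigi as Ddx58 and Sting1 as Tmem173. RNA was sequenced from 3 libraries labelled VC and 3 labelled control, all from TM4 cells of 1 line. The agent is vitamin C by the series title but valine by a sample characteristic and by the design text, and the group is therefore called VC. No dose, exposure time or vehicle is given. The labels do not state whether replicates came from separate cultures, so p-values measure the spread between these libraries, which may be technical.

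Cells recognise viral or misplaced nucleic acid in the cytosol through sensors that feed a common relay. Rigi (RIG-I) and Ifih1 (MDA5) bind double-stranded RNA and signal through Mavs on mitochondria, and Dhx58 (LGP2) tunes them. Cgas binds double-stranded DNA and makes a cyclic dinucleotide that activates Sting1 on the endoplasmic reticulum. Both routes reach the kinase Tbk1, which phosphorylates Irf3 and Irf7, the transcription factors that switch on type I interferon genes. Zbp1 binds nucleic acid in the Z form and can start necroptosis through Ripk3 and Mlkl. Rigi, Ifih1, Dhx58, Irf7 and Zbp1 are themselves known to be induced by interferon, whereas Mavs, Tbk1 and Irf3 are largely constitutive.

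Values are the deposited ones, which are scaled per gene length and per library, and are referred to as values. Reads recovered from them summed to 20408425 to 22316857 per library. The deposited values summed to 966031 to 983802 in VC and 1007535 to 1058206 in control. Control replicate 3 had the highest of these sums, and results that rest on it are given without it too. Of the Sertoli cell markers, Wt1, Fshr and Dmrt1 were listed at 0 in all 6 libraries, while Gata4 was at 21.4 to 22.3 in VC and 18.6 to 19.8 in control and Sox9 at 3.23 to 3.97 in VC and 2.83 to 3.28 in control. Of 16 macrophage and dendritic cell markers, 6 were at 0 in every library (Adgre1, C1qa, C1qb, C1qc, Tyrobp and Siglech) and Ptprc reached at most 0.007. The sum of these 16 was 61.1 to 71.4 in VC and 56.1 to 65.9 in control, most of it Cd14. The 13 mitochondrially encoded protein genes, which can track RNA quality, summed to 89867 to 95915 in VC and 99586 to 101617 in control, without overlap, and their part in the results was not tested.

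The promoters of the 3 members with the largest differences are shown first, because all 3 VC libraries exceeded all 3 controls for them and because interferon-induced genes often carry an interferon-stimulated response element. The motif searched was GAAANNGAA, the core of that element, on both strands. Each window runs 5′ to 3′ on the gene's strand from 250 bases before the annotated start to 50 after it, from RefSeq on build GRCm38.p6, an earlier build than the GRCm39 used for alignment. Capitals mark motif matches. All 3 genes lie on the minus strand, at chr4:40239776-40240075 (Rigi), chr2:62646206-62646505 (Ifih1) and chr7:141266375-141266674 (Irf7).
Rigi: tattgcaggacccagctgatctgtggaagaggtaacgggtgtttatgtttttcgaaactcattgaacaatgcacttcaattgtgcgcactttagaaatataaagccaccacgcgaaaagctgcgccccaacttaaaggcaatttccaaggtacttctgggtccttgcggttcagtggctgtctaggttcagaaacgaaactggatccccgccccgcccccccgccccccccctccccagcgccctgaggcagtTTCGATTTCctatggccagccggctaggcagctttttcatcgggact
Ifih1: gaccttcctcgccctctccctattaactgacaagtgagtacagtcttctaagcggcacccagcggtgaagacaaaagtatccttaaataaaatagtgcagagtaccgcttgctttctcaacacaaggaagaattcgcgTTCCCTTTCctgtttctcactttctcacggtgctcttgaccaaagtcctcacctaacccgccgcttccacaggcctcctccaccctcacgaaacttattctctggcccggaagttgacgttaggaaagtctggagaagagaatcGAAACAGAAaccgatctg
Irf7: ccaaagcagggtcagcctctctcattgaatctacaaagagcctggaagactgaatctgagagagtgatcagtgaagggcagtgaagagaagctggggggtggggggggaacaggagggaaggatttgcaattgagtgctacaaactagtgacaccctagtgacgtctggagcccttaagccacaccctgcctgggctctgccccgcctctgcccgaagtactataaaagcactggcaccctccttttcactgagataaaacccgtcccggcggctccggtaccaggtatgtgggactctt

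The Rigi window held 1 match, at its bases 254 to 262 on the opposite strand, just past the annotated start. Ifih1 held 2, at bases 139 to 147 on the opposite strand and 283 to 291 on the gene's own strand. No match stood in the Irf7 window, nor in those of Mavs, Cgas, Tbk1 and Irf3, which says only that these letters are absent there. Windows were at hand for 7 of the 10 members, so 2 of 7 held the motif, against 9.76% of 27025 genes with a window. None was at hand for Dhx58, Zbp1 or Sting1, although all VC values of Sting1 also lay above control. The same 2 genes matched when a further A was required after the core, a form found in 3.99% of genes. No binding was measured, and a match is a description of sequence.

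Set beside each other on the per-length scale, the members spanned a wide range of levels. Sting1 was highest, with values of 44.2 to 53.1 over the 6 libraries, followed by Mavs at 39.1 to 43.1 and Tbk1 at 31.98 to 36.3, and none of these ranges overlapped. Cgas (19.2 to 22.4) and Irf3 (19.1 to 21.9) came next and could not be ordered. Rigi followed at 8.54 to 13.4, and Ifih1, Irf7 and Dhx58 overlapped one another between 0.829 and 2.24. Zbp1 was lowest, at 0.147 to 0.458. Transcripts of the shared relay proteins were thus well above those of the interferon-inducible RNA sensors and Irf7.

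Comparing VC with control asks whether the agent altered the expression of the sensing machinery. Rigi, Ifih1 and Irf7 had higher values in every VC library than in any control library, with group means 1.31, 1.60 and 1.88 times those of control. Sting1 also lay above control in every VC library, at 1.10 times the control mean. The values of the other 6 members overlapped between the groups. Among all tested genes, 13.9% had every VC value above every control value, and 25.6% did not overlap in either direction. No member passed limma's adjusted threshold of 0.05, which 0.687% of the 13972 tested genes passed (60 higher and 36 lower). At an unadjusted p under 0.05, 4 of the 9 tested members were higher (Rigi, Ifih1, Irf7 and Sting1), where 9.05% of all genes were. Limma-voom on the recovered reads called 3 of the 9 higher, Rigi, Ifih1 and Irf7, against 2.48% of its 13772 genes. Since the members were chosen with earlier results known, these shares describe the set and are no independent test of it.

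**Figure D1:**
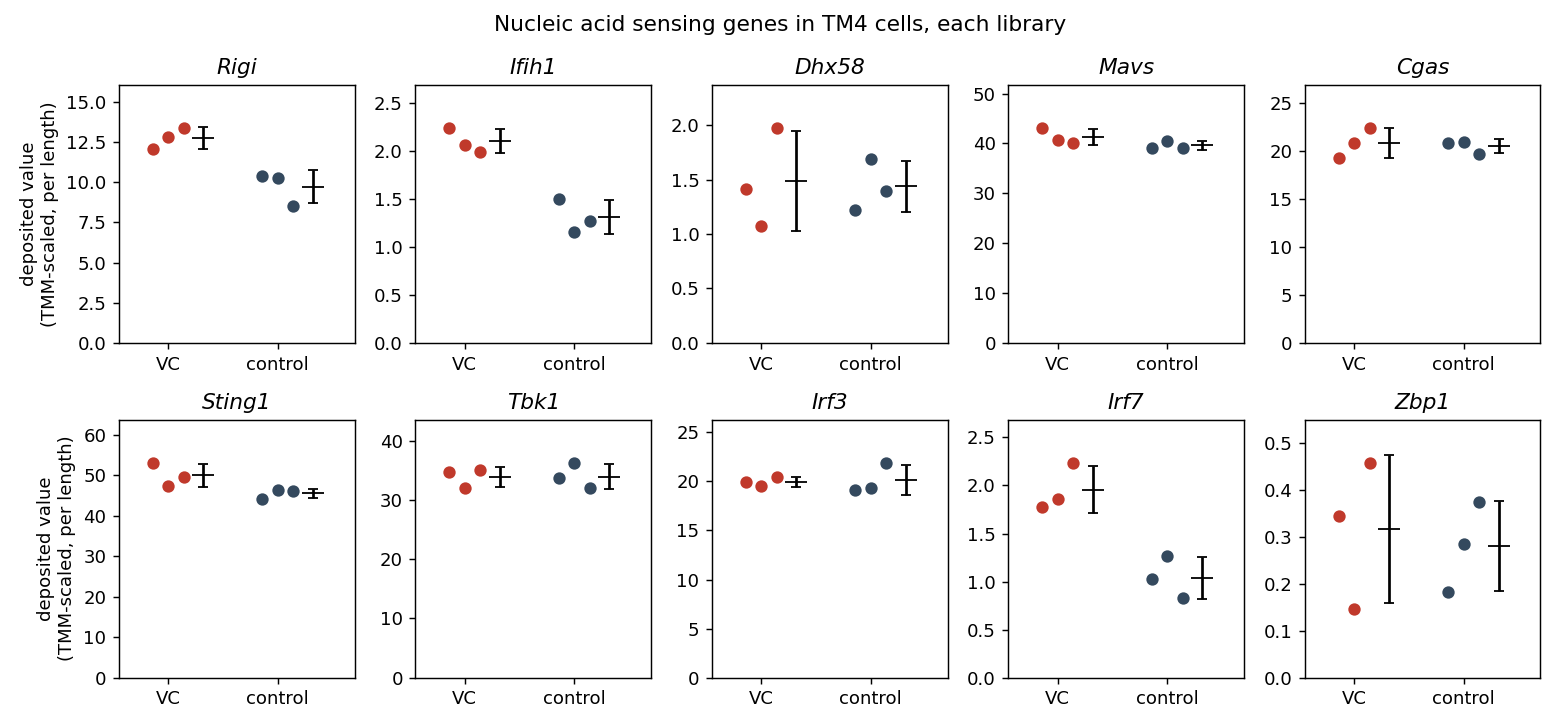
Deposited value (vertical axis, per-length scale) of each of the 10 members in every library, VC left and control right; points are libraries, and the black mark and bar are the mean and SD of 3. Rigi, Ifih1, Irf7 and Sting1 have all 3 VC points above all 3 control points, while the other 6 overlap.

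Among the RNA sensors, Rigi, which reads short RNA ends with a 5′ triphosphate, had values of 12.1, 12.8 and 13.4 in VC and 10.4, 10.3 and 8.54 in control. The lowest VC library thus stood above the highest control library, and control replicate 3 was the lowest of all. Means were 12.8 ± 0.664 in VC and 9.72 ± 1.02 in control (SD, n = 3 each). The log2 fold change on log2(value + 1) was 0.36 (SE 0.085, limma adjusted p = 0.112). Without control replicate 3 it was 0.28 (limma adjusted p = 0.112). With limma-voom the fold change was 0.40 (SE 0.081, adjusted p = 0.0172), and over all the settings tried the adjusted p ran from 0.0172 to 0.318.

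Ifih1, the sensor of long double-stranded RNA, was measured at 2.24, 2.07 and 1.99 in VC and 1.502, 1.16 and 1.27 in control. These values rest on 150, 130 and 131 reads in VC and 95, 75 and 86 in control. The groups did not overlap, and the VC libraries varied less among themselves than the distance between the groups. Its log2 fold change was 0.43 (SE 0.13, limma adjusted p = 0.187) on log2(value + 1), a scale that understates low genes. With a pseudocount of 5 it was 0.17, and without control replicate 3 it was 0.42. Limma-voom on the reads gave 0.69 (SE 0.15, adjusted p = 0.0208), within an adjusted p of 0.0208 to 0.388 over the settings.

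Dhx58, the family member without signalling domains of its own, showed no such separation. It had values of 1.42, 1.07 and 1.97 in VC and 1.22, 1.69 and 1.40 in control. The highest and the lowest library were both VC, and the 6 libraries held only 27 to 52 reads each. The log2 fold change was 0.02 with a 95% interval of -0.42 to 0.46 (limma adjusted p = 0.975), and the fold changes of Rigi and Ifih1 lie inside that interval. Of its exon bases, 141 of 3272 are shared with the antisense gene Dhx58os, and with no strand stated for the libraries reads there cannot be told apart.

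Mavs, the mitochondrial adaptor for Rigi and Ifih1, overlapped between the groups. Its values were 43.1, 40.7 and 40.1 in VC and 39.1, 40.6 and 39.1 in control. The lower 2 VC libraries were close to control replicate 2. The log2 fold change was 0.06 with a 95% interval of -0.04 to 0.16 (limma adjusted p = 0.515). Without VC replicate 1 the fold change was 0.03 (limma adjusted p = 0.806). With libraries scaled to equal totals it was 0.13 (limma adjusted p = 0.197), where the median of all genes was 0.078.

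On the DNA side, Cgas had values of 19.2, 20.8 and 22.4 in VC and 20.8, 20.9 and 19.6 in control. VC libraries took both ends of the range, and the log2 fold change was 0.02 (95% interval -0.13 to 0.17, limma adjusted p = 0.903). The exons of Cgas share 201 bases with Gm8093, which was at 0.114 or less in every library. Sting1, the adaptor that Cgas activates, was at 53.1, 47.3 and 49.5 in VC and 44.2, 46.4 and 46.0 in control. All VC values lay above control, but VC replicate 2 exceeded the highest control by less than the spread among controls. Sting1's log2 fold change was 0.13 (SE 0.051, limma adjusted p = 0.265), and limma-voom gave 0.13 (adjusted p = 0.229). Leaving out 1 library at a time gave 0.085 (without VC replicate 1) to 0.17, and in 5 of these 6 fits, all but that without VC replicate 2, its unadjusted p was no longer under 0.05. The same held with quantile normalization, without a variance trend and with a replicate block.

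**Figure D2:**
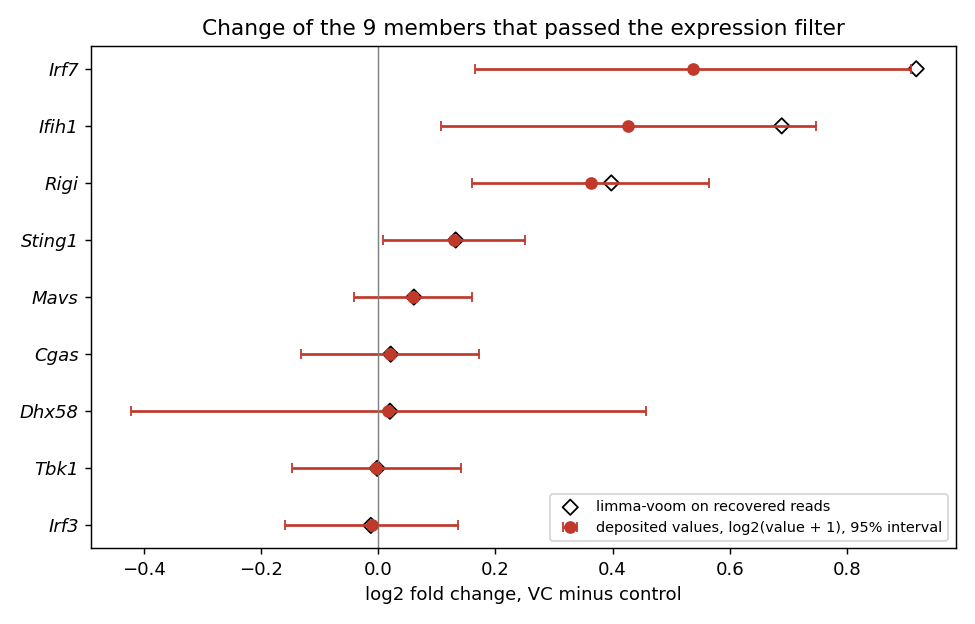
Log2 fold change, VC minus control (horizontal axis), of the 9 members that passed the expression filter; filled points with 95% intervals come from limma on log2(value + 1), open diamonds from limma-voom on recovered reads. Irf7, Ifih1 and Rigi lie farthest to the right at 0.54, 0.43 and 0.36, and the interval of Dhx58 is the widest.

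The shared kinase Tbk1 did not separate the groups. Its values were 34.7, 31.99 and 35.01 in VC and 33.7, 36.3 and 31.98 in control, with the highest and the lowest values both in control. The log2 fold change was -0.003 (95% interval -0.15 to 0.14, limma adjusted p = 0.988). Irf3, the constitutive transcription factor downstream of Tbk1, was at 19.9, 19.5 and 20.4 in VC and 19.1, 19.4 and 21.9 in control. Control replicate 3 alone stood above the VC libraries, and the log2 fold change was -0.01 (95% interval -0.16 to 0.14, limma adjusted p = 0.951). Irf3 shares 88 exon bases with Bcl2l12, which was at 8.82 to 11.7 in VC and 9.69 to 10.3 in control. With libraries scaled to equal totals the fold changes of Tbk1 and Irf3 were 0.067 and 0.059, where the median of all genes was 0.078, against 0.012 as deposited.

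Irf7, the interferon-induced partner of Irf3 that amplifies interferon output, showed the largest difference of the members. It had values of 1.78, 1.86 and 2.24 in VC and 1.03, 1.27 and 0.829 in control. The groups did not overlap, and control replicate 3 was the lowest library. Means were 1.96 ± 0.247 in VC and 1.04 ± 0.219 in control (SD, n = 3 each), resting on 55, 54 and 68 reads in VC and 30, 38 and 26 in control. The log2 fold change was 0.54 (SE 0.16, limma adjusted p = 0.163). It was 0.20 with a pseudocount of 5, 0.68 with a pseudocount of 0.5 and 0.46 without control replicate 3. Limma-voom on reads gave 0.92 (SE 0.23, adjusted p = 0.0459), with adjusted p of 0.0459 to 0.421 over the settings. The exons of Irf7 share 45 of 3776 bases with Phrf1 on the opposite strand, whose values were 28.3 to 30.7 in VC and 27.9 to 30.3 in control, and reads in the shared bases cannot be told apart.

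Zbp1, the sensor of Z-form nucleic acid, did not pass the expression filter, a value of at least 1 in 3 or more libraries. It was at 0.345, 0.147 and 0.458 in VC and 0.183, 0.285 and 0.375 in control, on 10, 4 and 13 reads in VC and 5, 8 and 11 in control. The groups overlapped fully and no difference was detectable at this depth. All 9 other members passed the filter, each with values of at least 1 in 5 or more libraries, so none passed through the VC group alone.

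Ratios of members within a library do not depend on how libraries were scaled to each other. Rigi to Mavs was 0.280, 0.315 and 0.334 in VC and 0.265, 0.253 and 0.218 in control. Ifih1 to Mavs was 0.0520, 0.0507 and 0.0497 in VC and 0.0384, 0.0285 and 0.0325 in control. Irf7 to Irf3 was 0.0892, 0.0952 and 0.110 in VC and 0.0537, 0.0654 and 0.0378 in control. In these 3 ratios the VC values lay above every control value. Their numerators are members already seen to separate the groups and their denominators overlapped, so the ratios are no further support. No ratio was formed for Dhx58, an inducible member whose values overlapped. Sting1 to Cgas (mean 2.42 ± 0.305 in VC and 2.23 ± 0.107 in control, SD, n = 3 each) and Sting1 to Tbk1 (1.47 ± 0.0591 in VC and 1.34 ± 0.0841 in control) overlapped. In a bulk sample a higher level in every cell and a larger share of expressing cells cannot be told apart.

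**Figure D3:**
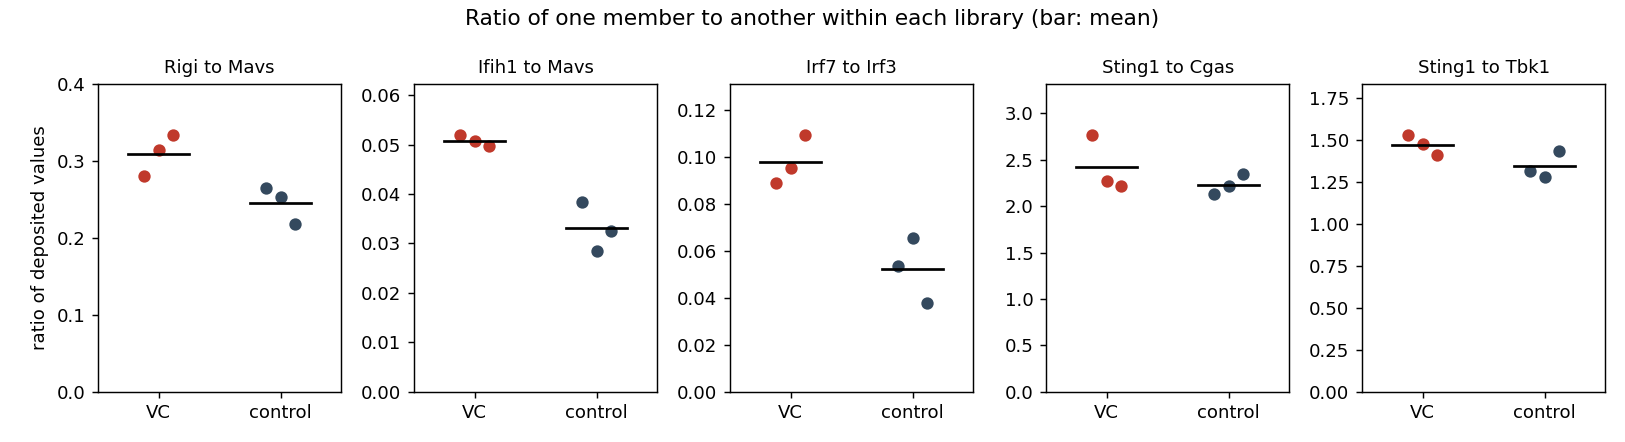
Ratio of the deposited value of a member to that of another in the same library (vertical axis), VC left and control right; points are libraries and lines are means of 3. Rigi to Mavs, Ifih1 to Mavs and Irf7 to Irf3 are higher in all 3 VC libraries, while both Sting1 ratios overlap.

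The other genes of the pathway were described in 10 lists with 136 measured genes, 95 of them past the filter. Outside the readout genes no gene of 85 tested passed limma's adjusted threshold. At an unadjusted p under 0.05, 15 were higher and 6 lower (17.2% of all genes in either direction). Limma-voom called 6 higher and 1 lower, where it called 341 higher and 207 lower of 13772 genes. The median log2 fold change of these 85 was 0.02, against 0.01 for all genes tested. By list the median was 0.02 for RNA sensing, 0.03 for TRAF and kinase scaffold genes, -0.02 for DNA sensing and 0.19 for AIM2-like receptors. It was 0.095 for partners of Zbp1, 0.03 for endosomal receptors and adaptors, -1.2e-05 for RNA polymerase III subunits and 0.075 for the other interferon regulatory factors.

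Among 19 tested regulators and effectors of RNA sensing, 5 were higher and 2 lower at an unadjusted p under 0.05 and limma-voom called 4 higher. Over all genes these shares were 9.05% higher and 17.2% in either direction, and 2.48% higher by limma-voom. All VC values lay above control for 5 of the 19 and below it for 6 (Ppp1cc, Ywhae, Ppp1ca, Pcbp2, Tomm70a and Usp15). Of all tested genes 13.9% lay above and 25.6% on either side. Ppp1cc, a catalytic subunit of protein phosphatase 1, averaged 214.5 ± 1.95 in VC and 240.7 ± 11.8 in control (log2 fold change -0.16, limma adjusted p = 0.127). Ywhae, a 14-3-3 protein, averaged 862.1 ± 15.7 in VC and 912.3 ± 11.9 in control (-0.08, limma adjusted p = 0.266). Trim25, a ubiquitin ligase tied to Rigi activation, was at 39.6, 40.5 and 42.7 in VC and 33.5, 34.1 and 31.3 in control (log2 fold change 0.30, limma adjusted p = 0.0541, limma-voom adjusted p = 0.00660). Eif2ak2, the RNA-activated kinase PKR, was at 35.4, 34.1 and 37.1 in VC and 27.0, 30.01 and 24.8 in control (0.37, limma adjusted p = 0.0777, limma-voom adjusted p = 0.00757). Adar, which edits double-stranded RNA and limits Ifih1 activation, averaged 19.0 ± 1.10 in VC and 15.1 ± 1.43 in control (0.32, limma adjusted p = 0.122, limma-voom adjusted p = 0.0202). For Trim25, Eif2ak2 and Adar all VC values exceeded every control value. Cyld, a deubiquitinase that restrains Rigi signalling, averaged 28.7 ± 0.611 in VC and 24.9 ± 1.10 in control (limma-voom adjusted p = 0.0290). Ddx60, a helicase that missed the filter and was picked after its values were seen, was at 1.179, 0.911 and 1.16 in VC and 0.580, 0.826 and 0.541 in control.

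The adaptors and kinases between Mavs or Sting1 and the transcription factors showed little separation. None of the 12 tested TRAF and kinase scaffold genes had an unadjusted p under 0.05, where 17.2% of all genes did, and limma-voom called none. Ikbke, the kinase related to Tbk1, averaged 2.40 ± 0.312 in VC and 2.19 ± 0.189 in control (limma adjusted p = 0.756), and the ubiquitin ligase Traf3 averaged 16.2 ± 0.206 in VC and 15.8 ± 1.36 in control (limma adjusted p = 0.832). The kinase Ikbkb had the smallest p of the list, with a log2 fold change of 0.12 (limma adjusted p = 0.297), followed by Chuk at 0.08 and the adaptor Tradd at 0.08.

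Genes around cGAS and STING had fold changes on both sides of 0. Of 21 tested, 3 were higher and 3 lower at an unadjusted p under 0.05, where 17.2% of all genes differed in either direction. Limma-voom called only Tmed2, lower. The trafficking genes Tmed2 and Surf4 averaged 423.1 ± 22.0 and 235.7 ± 4.91 in VC and 487.1 ± 13.9 and 261.4 ± 12.8 in control, and G3bp1, a stress granule protein that aids Cgas, 136.0 ± 2.33 in VC and 149.8 ± 2.17 in control. Their limma adjusted p were 0.107, 0.162 and 0.105, and these were the 3 lower genes. The 3 higher genes were Prkdc, Trim56 and Ddx41, each with all VC values above control. Their log2 fold changes were 0.28, 0.25 and 0.14 (limma adjusted p = 0.282, 0.253 and 0.275). Samhd1, which removes deoxynucleotides and limits sensing of nascent DNA, averaged 39.1 ± 0.834 in VC and 40.8 ± 1.88 in control (limma adjusted p = 0.549). The nuclease Trex1 was listed at 0 in all 6 libraries. All 1147 of its exon bases lie inside exons of Atrip on the same strand, which was at 7.24 to 8.45 in VC and 6.93 to 8.05 in control, so its level was not measured here.

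The AIM2-like receptors are DNA-binding proteins encoded side by side by similar genes, among which reads may be split uncertainly. Of 10 matched, 4 were tested, all with a log2 fold change above 0 and 3 higher at an unadjusted p under 0.05, where 7505 of 13972 genes were above 0 and 9.05% were higher at that p. Ifi203 averaged 9.91 ± 0.295 in VC and 8.08 ± 0.344 in control (log2 fold change 0.26, limma adjusted p = 0.110, limma-voom adjusted p = 0.0356). Ifi204 and Ifi211 had log2 fold changes of 0.18 and 0.19 (limma adjusted p = 0.263 and 0.272). Aim2 itself, which builds an inflammasome on DNA, stayed between 0.069 and 0.313. The motif stood in the promoters of 7 of 9 of these genes with a window, against 9.76% of 27025 genes. Several matches have the same bases, as in Ifi203, Ifi207, Ifi208 and Ifi213, so they are not independent. Among other lists it stood in 6 of 8 readout genes and 11 of 19 interferon genes. It also stood in 6 of 18 RNA sensing genes, 3 of 6 partners of Zbp1 and 2 of 8 endosomal receptors and adaptors. For TRAF and kinase scaffold genes the count was 2 of 12. Of the other interferon regulatory factors 1 of 6 held it, Irf2, and Irf9 did not. The lowest counts were 1 of 20 DNA sensing genes and 0 of 9 RNA polymerase III subunits.

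Partners that carry Zbp1's death signal were measured well although Zbp1 was low. Mlkl, the pore-forming executioner of necroptosis, had values of 148.4, 145.3 and 146.1 in VC and 135.4, 130.1 and 136.1 in control (log2 fold change 0.13, limma adjusted p = 0.124). The kinase Ripk3 averaged 31.0 ± 1.72 in VC and 30.5 ± 2.96 in control (limma adjusted p = 0.906). Cflar, which blocks Casp8, and Fadd, its adaptor, had log2 fold changes of 0.20 and 0.15 (limma adjusted p = 0.263 and 0.367). Of the 6 tested partners 2 were higher at an unadjusted p under 0.05, where 9.05% of all genes were. Limma and limma-voom called none of the 6.

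The endosomal Toll-like receptors and their adaptors showed no call by limma or limma-voom among 6 tested genes. Of these, 0 had an unadjusted p under 0.05, against 17.2% of all genes in either direction. Tlr3, the endosomal receptor for double-stranded RNA, was at 2.34, 2.54 and 1.62 in VC and 1.39, 2.05 and 1.32 in control, with overlap (limma adjusted p = 0.458). Unc93b1, the chaperone of these receptors, and the kinase Irak1 had log2 fold changes of 0.15 and 0.05. RNA polymerase III can turn cytosolic DNA into Rigi ligands. Of its 13 subunits, 1 was higher (Polr3b, log2 fold change 0.14) and 1 lower (Polr3g, log2 fold change -0.15) at an unadjusted p under 0.05. Such a p was found in 17.2% of all genes, in either direction. Polr3a, with the next smallest p, had a log2 fold change of 0.11 (limma adjusted p = 0.452). No subunit was called by limma or limma-voom.

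Of the other interferon regulatory factors 3 were tested. Irf9, which partners the STAT proteins at the interferon-stimulated response element, was at 10.02, 10.8 and 10.8 in VC and 8.34, 8.03 and 7.22 in control. The groups did not overlap, and the log2 fold change was 0.38 (limma adjusted p = 0.0756, limma-voom adjusted p = 0.0132). Irf1 averaged 17.4 ± 0.530 in VC and 16.4 ± 0.582 in control (limma adjusted p = 0.486), and Irf2 differed by -0.04 (limma adjusted p = 0.774).

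The interferon genes themselves were at or near 0. Of 20 type I and III interferon genes 17 were at 0 in every library. Ifnb1, the first product of Irf3 activation, had 0, 2 and 1 reads in VC and 0 in each control library, under the 3 counts that a library at 0 allows, so no difference was detectable at this depth. Ifnz alone passed the filter, on 46 reads in VC and 46 in control.

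In a list of 10 readout genes that the sensors or interferon induce, chosen with these data known, limma called 6 higher and 0 lower, and 0.429% of all genes were called higher. With the list chosen that way, the count is a description and no independent evidence. Limma-voom called these 6 and Ifi44 higher, but Ifi44, at 1.75, 1.84 and 1.64 in VC and 0.780, 0.944 and 0.963 in control, passed the filter only through its VC values, and so had to differ. Ifit1, which binds viral RNA, had the smallest p, with values of 24.5, 28.5 and 26.5 in VC and 16.9, 15.7 and 16.5 in control (log2 fold change 0.66, limma adjusted p = 0.0189). The chemokine genes Cxcl10 and Ccl5 also rose, as did Isg15, Usp18 and Oasl1. Ifit2, Ifit3 and Rsad2, the rest of the list, were called by neither limma nor limma-voom. Of the 10, 8 were higher at an unadjusted p under 0.05, where 9.05% of all genes were. The lowest log2 fold change of the list was 0.086. The median log2 fold change of the 10, Ifi44 included, was 0.53. Without control replicate 3 limma called 1 of these genes, and without any other single library it called 0. All 3 VC values lay above all 3 control values for 7 of the 9 readout genes other than Ifi44 and for 4 of the 9 tested members, and for 13.9% of all genes tested. Over the pathway outside the readouts this held for 19 of 85 genes, and 12 of 85 lay below, where 25.6% of all genes lay on either side.

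**Figure D4:**
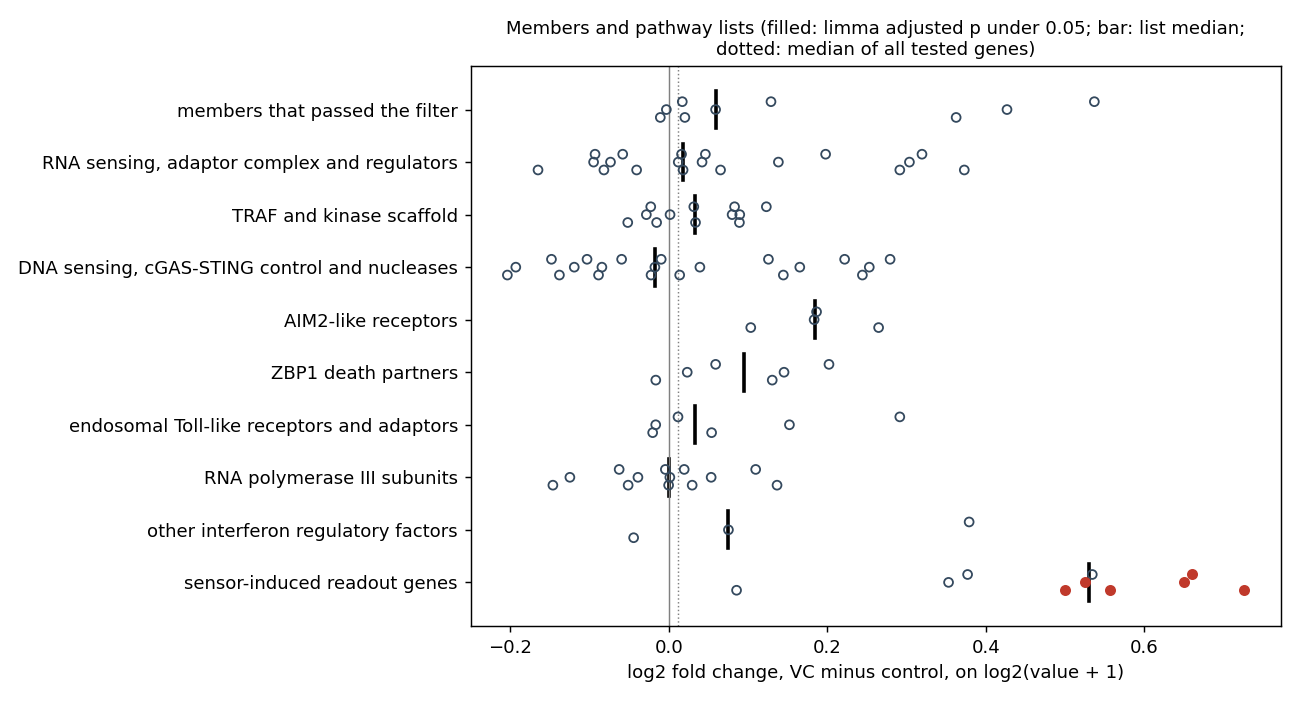
Log2 fold change, VC minus control on log2(value + 1) (horizontal axis), of each tested gene of the members and of 9 pathway lists; filled points passed limma's adjusted threshold of 0.05, bars are list medians and the dotted line is the median of all genes tested. Filled points stand only among the readout genes, whose median with Ifi44 included is 0.53, and the members' 3 rightmost points are Irf7, Ifih1 and Rigi.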

How the data were processed

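The deposited table gives 1 signal value per gene and library, never negative, scaled by length and by 1 factor per library (TMM by the table's name); the authors aligned with HISAT2 to GRCm39, per the submitters' processing notes, and the counting tool is not given in the sources used here. Columns were matched to samples by group letter and replicate number. The 13972 genes at 1 or above in 3 or more of 6 libraries were tested on log2(value + 1) with limma 3.58.1 in R 4.3.3 (empirical Bayes with trend, two-sided, Benjamini-Hochberg over all genes, threshold 0.05). Value times exon length (GENCODE M21) gave whole reads within 0.1 read for 98.7% to 98.9% of values up to 1000 reads. These reads went into limma-voom as an alternative and gave depth. Promoter windows came from RefSeq on GRCm38.p6. Alternatives were other pseudocounts, no filter, equal totals, quantile normalization, no variance trend, a replicate block and leaving out each library. The fit was also run on simulated counts with a fixed spread, where only genes above the level of Irf7, Ifih1 and Dhx58 were raised. That run does not show its accuracy for such low members. Named genes were the 10 members, called pathway genes, the 3 smallest p of each list and 14 fixed genes. Some others, among them Prkdc, Trim56 and Ddx41, were named after their values were seen. The members, lists and tests were chosen with earlier results of these data known. The software was Python 3.11.15 with numpy 2.4.6, pandas 2.3.3 and matplotlib 3.10.9.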

Additional observations from a re-analysis of the deposited data

How the results depend on the processing

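The log2 fold changes of Rigi, Ifih1, Irf7, Sting1 and Mavs kept their sign under every alternative. Those of the members near 0 did not. With quantile normalization Cgas was at -0.013 and Dhx58 at -0.022, and with equal totals Tbk1 was at 0.067 and Irf3 at 0.059. Leaving out 1 library at a time, Cgas ran from -0.031 to 0.074, Dhx58 from -0.12 to 0.14, Tbk1 from -0.045 to 0.045 and Irf3 from -0.045 to 0.049. None of these was called, and the cause was not tested.

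No member was called by limma under any alternative on the deposited values, and limma-voom called 3. Members at an unadjusted p under 0.05 numbered 2 to 4 when 1 library was left out, against 4 with all, and the lowest count came without VC replicate 1, where Ifih1 and Sting1 missed it. With quantile normalization and without a variance trend they numbered 3. With equal totals they numbered 5, as Mavs joined, and 2447 of all genes were higher at that p, against 1264 as deposited. Of all genes limma called 96 (60 higher, 36 lower), against 217 (182 higher, 35 lower) with equal totals, 30 without a filter, 6 without a variance trend and 548 by limma-voom. Leaving out 1 library gave 0 to 82, and 82 came without control replicate 3. Pathway genes called higher numbered 6, against 1 without a filter, 1 without a variance trend and 13 by limma-voom (Ifi44 included), and 0 to 1 with 1 library left out. Pathway genes called lower numbered 0, against 1 by limma-voom. 

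Same-numbered libraries did not deviate together (r = -0.019, -0.011 and 0.0051 across genes, which are not independent replicates), and libraries did not all correlate best with their own number, so the numbers were not taken as pairs. With a replicate block limma called 0 genes in all and 0 pathway genes, with 2039 genes at an unadjusted p under 0.05 against 2410, and 3 members against 4. Zbp1 has a fit only without a filter (0.04, limma adjusted p = 0.921). Depth limits Zbp1, Dhx58 and Irf7, with at most 68 reads in any library.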
